A study of Mus musculus with 10 samples.

Results

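Macrophages and Kupffer cells, the resident macrophages of the liver, are marked by a small set of transcripts, and 10 of these were followed in RNA sequencing of cultured adipose stem and precursor cells (ASPCs). The members were the rows of the count table with the symbols Clec4f, Vsig4, C1qa, C1qb, C1qc, Adgre1, Ptprc, Csf1r, Cd68 and Cd14, chosen by name, and all 10 were found among the 25229 rows. The cells came from perigonadal white adipose tissue (gWAT) of wild-type mice. They had been sorted from the stromovascular fraction as CD45-CD31-Pdgfra+, grown to confluence without passaging, and lysed 6 hr after the addition of 100 nM FICZ, a ligand of the aryl hydrocarbon receptor, or of DMSO, its vehicle. There were 5 libraries in each group, numbered 1 to 5. The age of the mice was not in the labels, and nothing stated whether the libraries of a group came from separate animals, so p-values measure only the spread between these libraries. The gate removed cells with CD45 on their surface at the time of sorting, and CD45 is the product of Ptprc, 1 of the 10 members.

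Macrophages take up and digest dead cells, particles and microbes, and most tissues keep a resident population of them. Their survival depends on the CSF1 receptor, which is bound by CSF1 and IL-34. Kupffer cells line the sinusoids of the liver, where they clear bacteria, complement-coated particles and desialylated glycoproteins from the blood. Clec4f, a C-type lectin receptor for galactose-bearing glycans, is held to be a defining gene of mouse Kupffer cells. Vsig4, a receptor for complement fragments, is found on Kupffer cells and on a few other resident macrophages. C1qa, C1qb and C1qc encode the chains of C1q, which starts the classical complement pathway. Adgre1 encodes F4/80, the usual surface marker of mouse macrophages, and Ptprc the pan-leukocyte phosphatase CD45. Csf1r encodes the CSF1 receptor, Cd68 a lysosomal membrane glycoprotein, and Cd14 the co-receptor that hands lipopolysaccharide to TLR4. Alb, the albumin gene, is made by hepatocytes and served as the measure of liver transcripts, since a gene counted in a fixed ratio to Alb has a slope of 1 when its log2 level is fitted on the log2 level of Alb, and a gene that does not follow Alb has a slope of 0.

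The promoters of 3 members are shown because 2 of these genes, C1qb and Vsig4, followed Alb across the libraries. The third, Cd68, did not follow it in proportion. Each stretch holds the 150 bases before the start site in RefSeq (GRCm38.p6), read on the strand of the gene and free of annotated exons, and capitals mark GAGGAA, the core of sites bound by PU.1, the transcription factor encoded by Spi1.
C1qb (chr4:136886201-136886350, minus strand): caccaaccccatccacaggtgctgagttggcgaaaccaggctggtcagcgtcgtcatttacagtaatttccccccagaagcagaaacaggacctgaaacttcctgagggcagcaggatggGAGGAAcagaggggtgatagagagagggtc
Vsig4 (chrX:96293439-96293588, minus strand): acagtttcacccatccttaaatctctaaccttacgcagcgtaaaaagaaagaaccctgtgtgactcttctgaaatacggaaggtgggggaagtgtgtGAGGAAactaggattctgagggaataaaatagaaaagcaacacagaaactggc
Cd68 (chr11:69666171-69666320, minus strand): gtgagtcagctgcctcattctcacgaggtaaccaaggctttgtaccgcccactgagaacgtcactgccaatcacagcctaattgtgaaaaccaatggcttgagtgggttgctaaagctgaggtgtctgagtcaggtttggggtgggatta
The stretches of C1qb and Vsig4 each held GAGGAA at 1 place and that of Cd68 held it, or its reverse complement TTCCTC, at none. Of all 32851 promoter stretches of this length, 14.5% held the motif on either strand, so a match is a description of the letters and not of a binding site. An entry was matched for 6 of the 10 members, and those of C1qc, Clec4f and Ptprc overlapped annotated exons and are not shown. C1qc, Clec4f and Ptprc followed Alb too, and their stretches held the motif on neither strand, so the motif did not go with the slope on Alb. Adgre1, C1qa, Csf1r and Cd14 were not matched.

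Positions are those of GRCm38, the assembly behind mm10, to which the authors aligned. C1qa (136895917 to 136898803), C1qc (136889804 to 136893065) and C1qb (136880129 to 136886187) lie side by side on the minus strand of chromosome 4, with gaps of 2851 and 3616 bases between them. Clec4f is on chromosome 6 (83644542 to 83656187), Vsig4 on chromosome X (96247203 to 96293438), Adgre1 on chromosome 17 (57358691 to 57483527) and Ptprc on chromosome 1 (138062861 to 138175708). Cd68 is on chromosome 11 (69664213 to 69666153), and Eif4a1, a translation factor gene on the same strand with a mean of 579 ± 62.8 in DMSO and 594 ± 63.8 CPM after FICZ, ends 782 bases upstream of it. Csf1r (61100598 to 61132149) and Cd14 (36725067 to 36726798) are on chromosome 18. Of the 5774 exonic bases of Csf1r, 873 are overlapped on the opposite strand by Hmgxb3, at 52.8 ± 10.1 in DMSO and 56.4 ± 7.03 CPM after FICZ, and 14.3% of the 50-base words of Csf1r transcripts also occur in those of Hmgxb3. How the counting treated strand was not given in the sources used here, so reads of the 2 genes cannot be told apart in the overlap. The level of Csf1r is uncertain at least to that extent. Pdgfrb, on the same strand, ends 15536 bases upstream of Csf1r. It had 876 ± 102 in DMSO and 871 ± 136 CPM after FICZ, with a slope on Alb of -0.03. Whether any counts of Csf1r came from Pdgfrb was not tested. For the other 9 members at most 0.0754% of such words, the value of Ptprc, were shared.

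Total counts ranged from 38328611 to 50210111 per library, at which the 3 counts taken as the detection floor stand for 0.0603 to 0.0787 CPM (CPM, counts scaled to a common library size with TMM factors). The floor covers counting error only. Pdgfra, used for the sort, was abundant at 1319 ± 88.3 in DMSO and 1387 ± 118 CPM after FICZ, whereas Pecam1, the gene of CD31, had means of 1.48 ± 0.122 and 1.01 ± 0.358 CPM (SD, n = 5 each). DMSO replicate 5 stood apart in its level of liver transcripts: Alb was counted 232987 times there, against 75521 or fewer times in each of the other 9 libraries. The lowest count of Alb was 29599, in FICZ replicate 4. The mean of Alb was 1982 ± 1659 in DMSO and 929 ± 153 CPM after FICZ, with a 7.01-fold range over the 10 libraries.

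All 10 members were counted above the floor in every library, with a lowest count of 7 and a highest of 725. Together they made up between 0.00225% and 0.00592% of the counts of a library. In bulk RNA, fewer cells of a type and less RNA per cell cannot be told apart, and this holds for every level given here. Per kilobase of exon, Cd68 had the highest mean level, 5.41 ± 1.44 CPM per kb, followed by Csf1r at 2.34 ± 0.40 CPM per kb (SD, n = 10 libraries), and the ranges of these genes did not overlap. C1qa (1.45), C1qb (1.40), Cd14 (0.991), Clec4f (0.945), C1qc (0.711) and Vsig4 (0.514 CPM per kb) followed, and the ranges of neighbours in this order overlapped. Of these, C1qb and Cd14 were the least settled, with C1qb higher in 4 of 10 libraries. Adgre1 (0.226 CPM per kb) was below Vsig4, and Ptprc (0.0300 CPM per kb) below Adgre1, in 10 of 10 libraries. The length was that of all annotated exons of a gene merged, 18313 bases for Ptprc and 3238 for Adgre1. It was not that of the transcripts present, so the order per kb depends on this choice. Alb had 622 CPM per kb by the same measure.

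Clec4f and Vsig4, the members closest to Kupffer cells, were counted in all libraries and were highest in DMSO replicate 5. In DMSO replicates 1 to 5 Clec4f had 140, 67, 44, 108 and 379 counts, and in FICZ replicates 1 to 5 it had 72, 45, 67, 49 and 69 counts. Vsig4 had 40, 20, 12, 51 and 117 counts in DMSO and 27, 28, 21, 14 and 11 counts in FICZ. For both genes DMSO replicates 1, 4 and 5 lay above all FICZ libraries and DMSO replicates 2 and 3 among them, so the groups overlapped. These 3 libraries were also the ones with the most Alb.

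The 3 C1q genes had the same order of libraries at the top. C1qa had 75, 32, 42, 81 and 235 counts in DMSO and 50, 37, 38, 29 and 54 counts in FICZ. C1qb had 76, 26, 33, 83 and 282 counts in DMSO and 36, 32, 34, 42 and 40 counts in FICZ. C1qc had 70, 29, 22, 64 and 238 counts in DMSO and 36, 53, 42, 25 and 37 counts in FICZ. In each case the highest 3 libraries were DMSO replicates 5, 1 and 4, and the groups overlapped through DMSO replicates 2 and 3.

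Adgre1 and Ptprc were the lowest of the members per length. Adgre1 had 37, 14, 22, 33 and 112 counts in DMSO and 37, 14, 29, 7 and 20 counts in FICZ. Ptprc had 34, 7, 13, 30 and 83 counts in DMSO and 13, 22, 13, 9 and 20 counts in FICZ. At such counts single libraries are imprecise, and both genes were again highest in DMSO replicate 5.

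Csf1r, Cd68 and Cd14 varied less between libraries. Csf1r had 509, 630, 645, 470 and 699 counts in DMSO and 569, 700, 725, 559 and 424 counts in FICZ. Cd68 had 301, 302, 325, 232 and 464 counts in DMSO and 321, 290, 363, 176 and 210 counts in FICZ. Cd14 had 53, 86, 64, 73 and 146 counts in DMSO and 71, 72, 45, 78 and 77 counts in FICZ. The highest CPM of Csf1r was in FICZ replicate 3 and those of Cd68 and Cd14 in DMSO replicate 5. The ratio of the highest to the lowest CPM was 1.87 for Csf1r, 2.35 for Cd68 and 2.64 for Cd14, and from 7.50 for C1qa to 14.3 for Adgre1 in the other 7 members. Leaving out DMSO replicate 5, it was 1.87, 2.26 and 1.58, and from 3.06 for C1qa to 6.34 for Ptprc in the other 7.

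**Figure D1:**
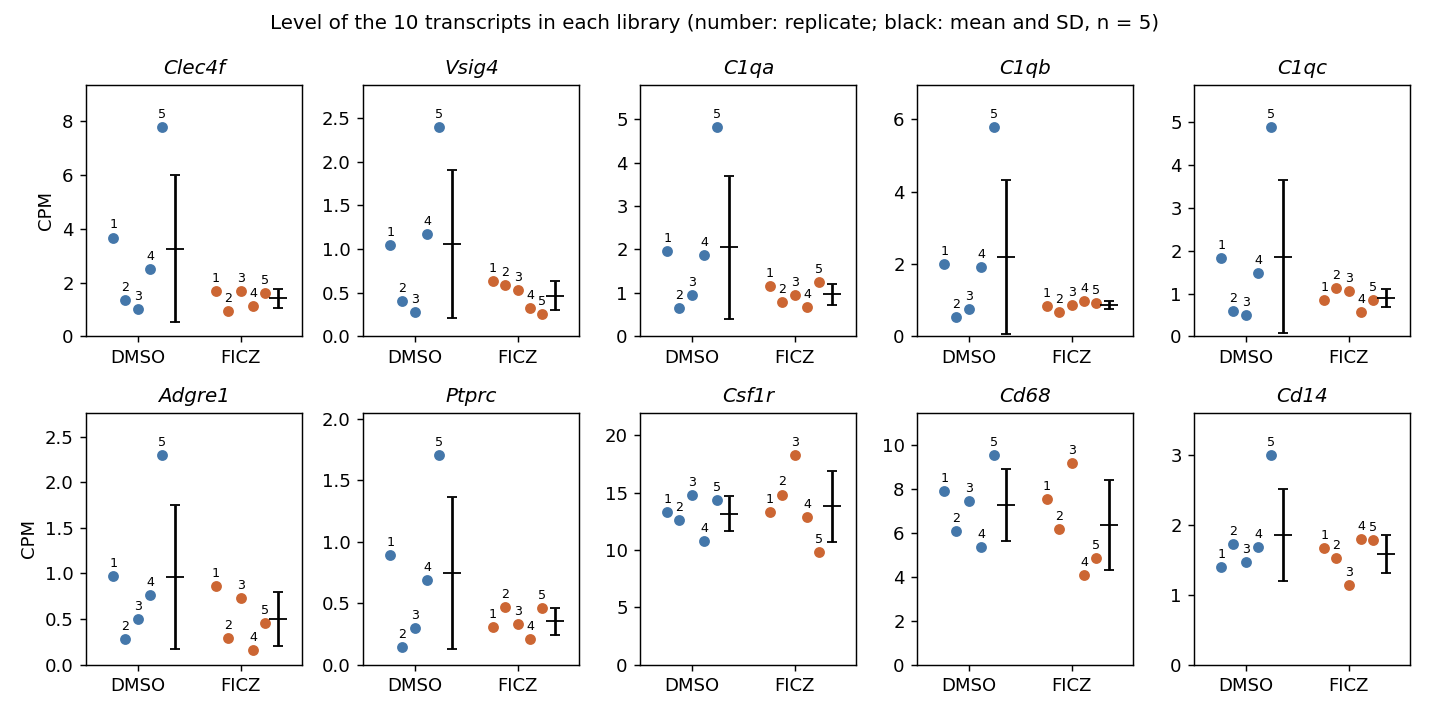
CPM of each transcript (vertical axis, from 0) in the 5 DMSO libraries (blue) and the 5 FICZ libraries (orange), with the replicate number above each point and the mean and SD of each group in black. DMSO replicate 5 is the highest library in 9 panels, and in Clec4f, Vsig4, C1qa, C1qb, C1qc and Ptprc DMSO replicates 1 and 4 come next, whereas Csf1r spans 9.79 to 18.3 CPM with its highest value in FICZ.

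The slope on Alb separated the members. Clec4f, Vsig4, C1qa, C1qb, C1qc, Adgre1 and Ptprc followed Alb nearly in proportion, with slopes between 0.98 and 1.12. Csf1r, Cd68 and Cd14 did not follow it in proportion and had lower slopes, between 0.00 and 0.26. With edgeR's quasi-likelihood test on log2 CPM of Alb, 7 of the 10 members had a slope above 0 at an adjusted p at or under 0.05 (Benjamini-Hochberg over 14250 genes), where 10.6% of all genes tested did. None had a slope below 0. The median slope was 1.02 over the members and -0.01 over all genes tested. This division into 7 and 3 members was read from the slopes and is used as a description only.

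Clec4f had a slope of 1.03 (standard error 0.09, 95% interval 0.84 to 1.23, edgeR adjusted p = 1.69e-06). Vsig4 had 1.06 (0.77 to 1.35), C1qa 0.98 (0.79 to 1.18), C1qb 1.12 (0.90 to 1.34) and C1qc 1.08 (0.87 to 1.29). The slope of Adgre1 was 1.01 (0.66 to 1.36, adjusted p = 0.000758), and that of Ptprc, the gene of the antigen used to exclude leukocytes, was 1.05 (0.74 to 1.37, adjusted p = 0.000167 from the same test). Against a slope of 1, edgeR called 3 of the 10 members, Csf1r, Cd68 and Cd14, where 95.4% of all genes tested differed from 1. The remaining 7 members were not called different from 1, as were 4.62% of all genes. Their intervals still allow slopes from 0.66 to 1.37, so these data do not show that the ratio to Alb was fixed.

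Csf1r had a slope of 0.00 (-0.19 to 0.19, edgeR adjusted p = 0.989), Cd68 one of 0.23 (-0.01 to 0.48, adjusted p = 0.162) and Cd14 one of 0.26 (0.03 to 0.49, adjusted p = 0.102). When the replicate number was a block, Cd68 passed the threshold (slope 0.36, 0.20 to 0.53, edgeR adjusted p = 0.0075) and 8 members were called in place of 7, where 7.48% of all genes had a slope above 0. The slope of Csf1r was then 0.14 (-0.03 to 0.32). Those of the 7 members spread more widely than without the block, from 0.87 for C1qa (0.59 to 1.15) to 1.34 for Vsig4 (0.96 to 1.73). With treatment as a term, which compares libraries within each group, the same 7 members were called, where 8.84% of all genes were, with slopes from 0.97 to 1.17, and Csf1r, Cd68 and Cd14 had 0.02, 0.23 and 0.26.

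DMSO replicate 5 carried much of the range in Alb. Without it, 6 members had a slope above 0, with Adgre1 no longer past the threshold (slope 1.14, 0.39 to 1.89, edgeR adjusted p = 0.164), where 3.22% of all genes did. The slopes of the other 6 then lay between 1.01 for C1qa and 1.28 for Ptprc, those of Csf1r and Cd14 turned to -0.09 and -0.10, and that of Cd68 was 0.20. The same 3 members were called different from 1. Without DMSO replicate 1, Cd14 passed the threshold with a slope of 0.31 (edgeR adjusted p = 0.0416), where 15.3% of all genes had a slope above 0.

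**Figure D2:**
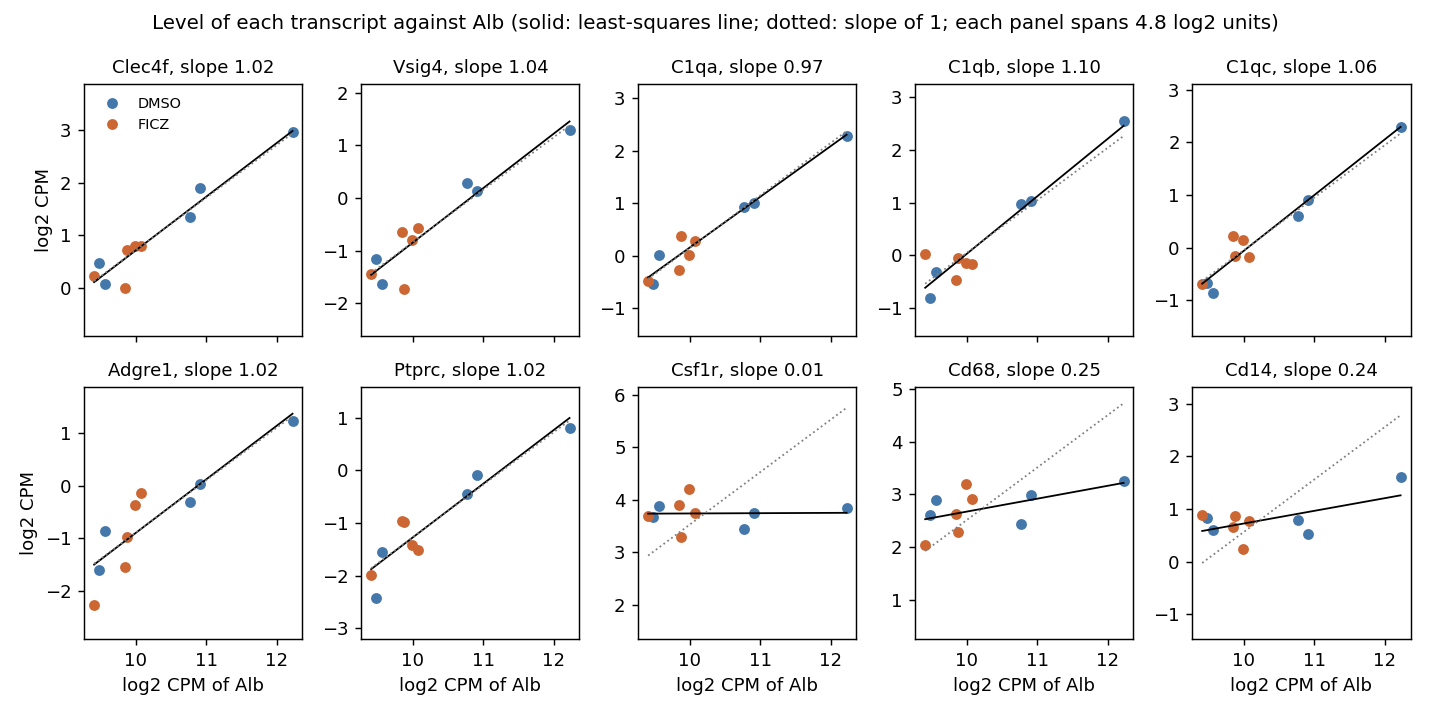
Log2 CPM of each transcript (vertical axis) against log2 CPM of Alb (horizontal axis) in DMSO (blue) and FICZ (orange) libraries, with the least-squares line (solid) and a line of slope 1 (dotted). The points of 7 transcripts run along the dotted line, with least-squares slopes of 0.97 to 1.10, whereas those of Csf1r, Cd68 and Cd14 leave it, with slopes of 0.01, 0.25 and 0.24.

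**Figure D3:**
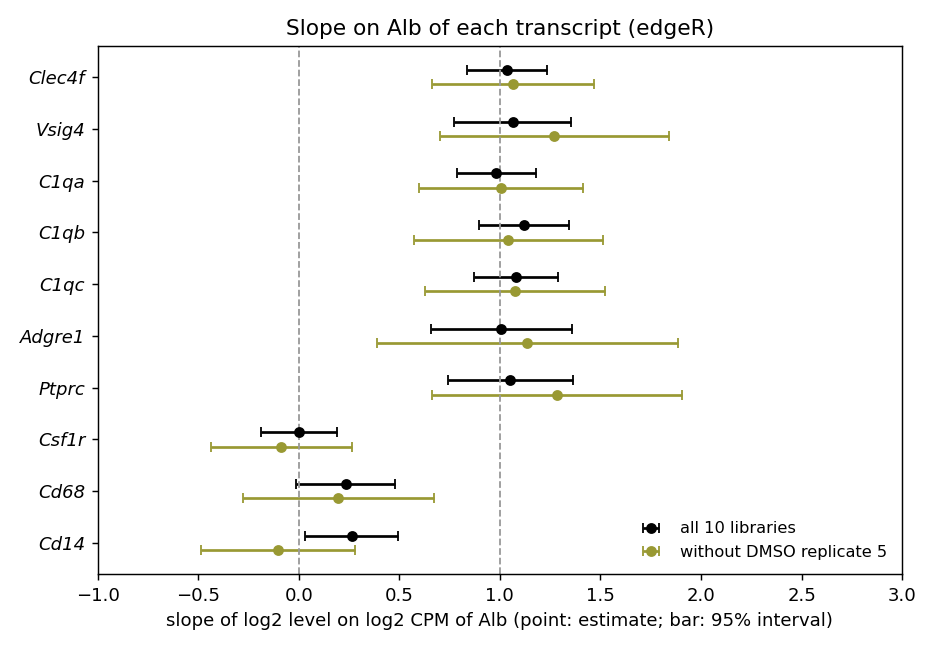
Slope of each transcript on log2 CPM of Alb from edgeR (horizontal axis), with 95% intervals, from all 10 libraries (black) and without DMSO replicate 5 (olive), and dashed lines at 0 and 1. The intervals of 7 transcripts include 1 in both fits, and those of Csf1r, Cd68 and Cd14 lie below 1 in both.

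Correlations with Alb used the same log2 CPM over the same 10 libraries. The 7 and the 3 members were divided by their slope on Alb there. The correlations largely follow from that division and are a description, not a second test. The permutations shuffled all 10 libraries and did not keep the same-numbered pairs together. Over the 7 members Pearson's r with Alb ranged from 0.886 for Adgre1 to 0.975 for C1qa, with adjusted p-values from 0.00035 to 0.00126 (permutation test, 100000 resamples, two-sided, adjusted over 10 relations). Spearman's rho ranged from 0.685 for C1qb to 0.952 for Adgre1, with adjusted permutation p-values from 0.0009 to 0.0496. For Csf1r, Cd68 and Cd14 r was 0.0194, 0.535 and 0.595 and rho was 0.0909, 0.648 and -0.0909, with adjusted permutation p-values from 0.0628 to 0.954. After the 2 libraries farthest from the median of Alb, DMSO replicates 5 and 1, were left out, r ranged from 0.732 to 0.897 in the 7 members and from -0.251 to 0.125 in the other 3. Among themselves, the 21 pairs within the 7 members had a median r of 0.906 (0.788 to 0.955) over the 10 libraries, which share their range in Alb. The 3 pairs among Csf1r, Cd68 and Cd14 had r between -0.325 and 0.683.

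Divided by Alb, the 7 members varied less across libraries than their CPM did, which largely follows from their grouping by slope and is a description only. Per 1000 counts of Alb, Clec4f had 1.91, 1.89, 1.33, 1.43 and 1.63 counts in DMSO replicates 1 to 5 and 1.55, 1.03, 1.66, 1.66 and 1.69 counts in FICZ replicates 1 to 5. Its ratio thus varied 1.85-fold while its CPM varied 8.15-fold, or 3.85-fold without DMSO replicate 5. The ratio varied 1.56-fold for C1qa, 1.83-fold for C1qc, 1.94-fold for C1qb, 2.50-fold for Vsig4, 2.56-fold for Ptprc and 3.38-fold for Adgre1. Csf1r per 1000 counts of Alb fell from 19.6 in DMSO replicate 3 to 3.00 in DMSO replicate 5, a 6.52-fold range, against 4.95-fold for Cd68 and 4.21-fold for Cd14. With DMSO replicate 5 left out the ranges were 3.14-fold for Csf1r, 3.21-fold for Cd68 and 3.64-fold for Cd14, and those of the 7 members were as before, since their extremes lay in other libraries. The summed CPM of the 7 members varied 7.58-fold and Alb 7.01-fold, and without DMSO replicate 5 they varied 3.16-fold and 2.82-fold. That of Csf1r, Cd68 and Cd14 varied 1.74-fold with or without this library.

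**Figure D4:**
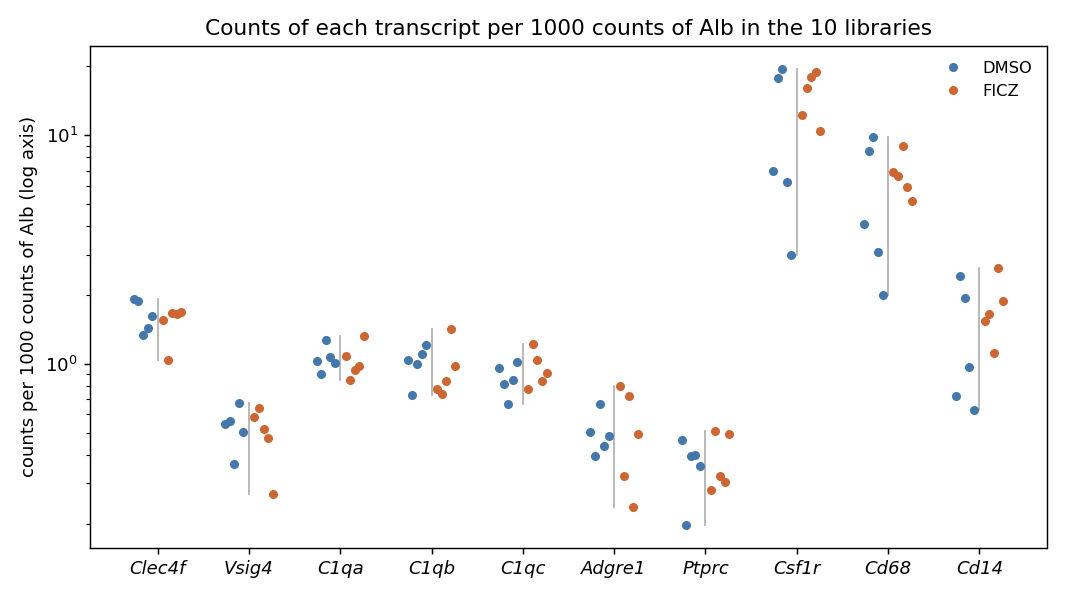
Counts of each transcript per 1000 counts of Alb (log axis) in the DMSO (blue) and FICZ (orange) libraries, with a grey line from the lowest to the highest value. The values of C1qa span 0.851 to 1.32 and those of Clec4f 1.03 to 1.91, whereas those of Csf1r span 3.00 to 19.6.

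FICZ against DMSO, the comparison of the study, gave no call among the members. Of 10 members, 0 passed an adjusted p of 0.05 in edgeR's quasi-likelihood test and 0 in DESeq2, where 0.0211% of the 14251 genes tested passed in edgeR. Before adjustment 4 members, Clec4f, C1qa, C1qb and Vsig4, were lower with FICZ at p of 0.05 or less in edgeR, where 3.49% of all genes were, and DESeq2 had 5 such members, where 3.62% of all genes it tested were. The log2 fold change was below 0 for 9 of 10 members, with a median of -1.06 over the members and 0.01 over all genes tested.

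The 7 members that followed Alb had log2 fold changes between -0.94 and -1.36, beside -1.09 (standard error 0.45) for Alb itself. C1qb went from 2.19 ± 2.12 in DMSO to 0.854 ± 0.110 CPM after FICZ (-1.36 on the log2 scale, standard error 0.55, edgeR adjusted p = 0.999), and Clec4f from 3.26 ± 2.73 to 1.41 ± 0.345 CPM (-1.21, standard error 0.49, adjusted p = 0.999). Vsig4 went from 1.06 ± 0.846 to 0.466 ± 0.169 CPM and C1qa from 2.05 ± 1.65 to 0.966 ± 0.246 CPM. The spread in DMSO was close to the mean in each of these genes. Adgre1, Ptprc and C1qc had log2 fold changes of -0.94, -1.07 and -1.06 with standard errors of 0.57, 0.55 and 0.55. In an exact permutation test, two-sided and on log2 CPM, p-values lay between 0.159 for C1qb and 0.810 for Csf1r, where this design cannot give a p below 0.00794. The DMSO and FICZ libraries overlapped for all 10 members.

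Csf1r stood at 13.2 ± 1.56 in DMSO and 13.8 ± 3.10 CPM after FICZ (0.07 on the log2 scale, standard error 0.15). Cd68 had 7.25 ± 1.63 and 6.35 ± 2.05 CPM (-0.19, standard error 0.23), and Cd14 had 1.85 ± 0.655 and 1.58 ± 0.271 CPM (-0.23, standard error 0.24). All 3 had an edgeR adjusted p of 0.999, and their differences were within the spread of the libraries.

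The differences of the members were set beside that of Alb. The members that followed Alb were grouped by their slope over these same libraries. Matching signs, and smaller differences with Alb as a covariate, largely follow from that grouping and are a description only. In the same-numbered pairs of libraries, Alb was lower with FICZ in pairs 1, 4 and 5, by 0.82, 1.35 and 2.34 on the log2 scale, and higher in pairs 2 and 3. The sign of the difference matched that of Alb in 5 of 5 pairs for Vsig4, C1qb, C1qc, Adgre1, Ptprc and Cd68, in 4 of 5 for Clec4f, C1qa and Csf1r, and in 1 of 5 for Cd14. With log2 CPM of Alb as a covariate the log2 fold changes of the 10 members lay between -0.11 and 0.29, with a median of -0.01 and 5 of 10 below 0. Without DMSO replicate 5 they lay between -0.62 and 0.10, with a median of -0.40, and 0 members reached an unadjusted p of 0.05 in edgeR, where 0.72% of all genes were lower at that level. When the replicate number was a block, the range was -0.93 to 0.05 and 0 members reached an unadjusted p of 0.05 in edgeR, against 4 without the block, where 2.17% of all genes were lower at that level. DESeq2 with the block had 3 such members, Clec4f, C1qa and C1qb, where 2.24% of all genes were lower.

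**Figure D5:**
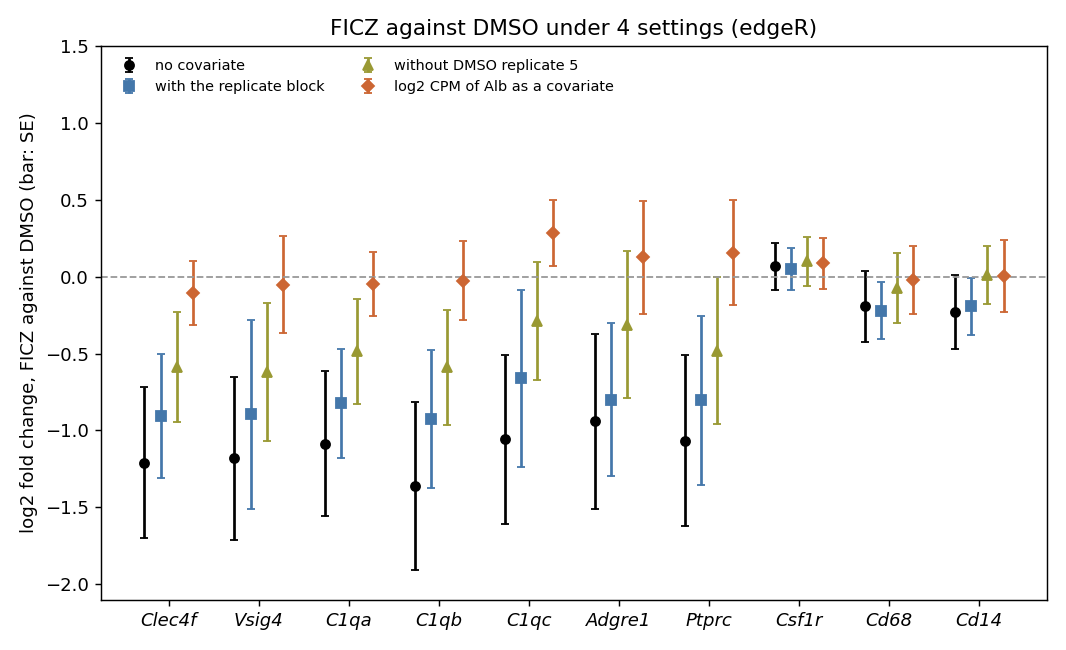
Log2 fold change of each transcript, FICZ against DMSO, from edgeR (vertical axis, bars show the standard error) in all libraries with no covariate (black), with the replicate block (blue), without DMSO replicate 5 (olive) and with log2 CPM of Alb as a covariate (orange). For the 7 transcripts on the left the black points lie between -0.94 and -1.36 and the orange points between -0.11 and 0.29, and for Csf1r, Cd68 and Cd14 all points lie near 0.

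Further Kupffer cell genes were tested where their counts allowed. Of Cd5l, Marco, Folr2, Timd4 and Clec1b, 3 passed the filter on low counts. Their median slope was 0.97 and all 3 were above 0 at the threshold, where 10.6% of all genes tested were. Cd5l, a secreted scavenger protein of tissue macrophages, had 81 to 587 counts and a slope of 0.97 (0.84 to 1.10, edgeR adjusted p = 5.23e-08). Marco, a scavenger receptor, had a slope of 0.97 (0.56 to 1.38) and neither of these was called different from 1. Folr2, a folate receptor, had a lower slope of 0.56 (0.20 to 0.91) and was called different from 1 (edgeR adjusted p = 0.0296). Timd4 and Clec1b were not tested, with 0 to 34 and 1 to 59 counts. Of the 3, only Cd5l passed the threshold without DMSO replicate 5, where 3.22% of all genes did.

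Of 14 further genes of macrophages in general, 10 were tested and 8 had a slope above 0, where 10.6% of all genes tested did. The median slope of the 10 was 0.81. Tyrobp, an adaptor of activating receptors, had a slope of 1.15 (0.82 to 1.48), and Cybb, the catalytic subunit of the phagocyte oxidase, one of 1.14 (0.80 to 1.49). Mpeg1, which encodes the pore-forming perforin-2, had 0.73 (0.56 to 0.90), and Lyz2, the lysozyme gene of myeloid cells, had 0.57 (0.38 to 0.77), and both were called different from 1 in edgeR (adjusted p = 0.00871 and 0.000979). Mertk, a receptor for dying cells, was counted 615 to 1015 times with a slope of -0.16 (-0.35 to 0.04). Without DMSO replicate 5, 2 of the 9 genes then tested, Tyrobp and Mpeg1, passed the threshold, where 3.22% of all genes did. Spi1 had 2 to 51 counts and was not tested.

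Genes of adipose tissue macrophages were mixed. Of 8 genes, 6 were tested, with a median slope of 0.45, and 2 had a slope above 0, where 10.6% of all genes tested did. Without DMSO replicate 5 there were 0 at the threshold in edgeR, where 3.22% of all genes passed. Cd163, the haemoglobin scavenger receptor, had a slope of 1.05 (0.64 to 1.47) and Mrc1, the mannose receptor, one of 0.80 (0.55 to 1.05). Trem2, a lipid receptor, was counted 27 to 48 times with a slope of 0.00 (-0.31 to 0.30). Gpnmb, a transmembrane glycoprotein found in macrophages and in other cells, was far more abundant, at 525 ± 60.3 in DMSO and 521 ± 49.7 CPM after FICZ, with a slope of 0.07 (-0.05 to 0.18).

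The ligands and partners of the members were counted at levels that did not track Alb in proportion, as was so for most genes tested. Csf1, a ligand of the CSF1 receptor, was at 3196 ± 756 in DMSO and 3434 ± 646 CPM after FICZ, with a slope of -0.25 (-0.44 to -0.06, edgeR adjusted p = 0.065), and Il34, the other ligand, had 8.35 ± 0.745 and 6.88 ± 1.63 CPM with a slope of 0.01. Of 10 genes of the classical complement pathway and its receptors, 9 were tested and all 9 were called different from 1, where 95.4% of all genes were. The median slope was 0.28, and 4 had a slope above 0, where 10.6% of all genes did. Among them were Cfb (0.48, 0.25 to 0.71), C4b (0.42) and C3 (0.24), which encode factor B, C4 and C3. C1s1, which encodes a protease that acts with C1q, was at 215 ± 52.4 in DMSO and 204 ± 48.0 CPM after FICZ, with a slope of 0.15 (-0.07 to 0.36). All 8 genes of CD14 and TLR4 recognition of lipopolysaccharide were tested and different from 1, as were 95.4% of all genes. Tlr2 and Ly96 had slopes above 0, as did 10.6% of all genes, and the median of the list was 0.07. Tlr4 itself had 58.2 ± 6.21 and 60.3 ± 10.4 CPM with a slope of 0.02. Without DMSO replicate 5, 0 genes of these 3 lists were called above 0 by edgeR, where 3.22% of all genes were. All 19 tested were still different from 1, as were 13032 of 14299 genes.

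Markers of other cells were set beside the members. Over all genes tested, 10.6% had a slope above 0 and 95.4% differed from 1. The share above 0 was 3.22% without DMSO replicate 5. All 20 hepatocyte genes other than Alb had a slope above 0, with a median of 1.00, and 19 of them, with slopes from 0.98 for Ahsg to 1.02 for Apob, were not called different from 1. Trf, the transferrin gene, was the exception at 0.53 (0.37 to 0.68). All 5 liver sinusoidal endothelial genes had a slope above 0, with a median of 0.83, namely Stab2 (0.94, 0.71 to 1.16), Dnase1l3 (1.02, 0.76 to 1.28), Clec4g (0.83, 0.59 to 1.07), Gpr182 (0.66, 0.36 to 0.95) and Oit3 (0.40, 0.20 to 0.61), of which Gpr182 and Oit3 were called different from 1, and without DMSO replicate 5 0 of the 5 passed in edgeR. Of 6 endothelial genes, 5 were tested and Emcn had a slope above 0 (0.63, median of the list 0.22), and of 3 bile duct genes, 2, Krt19 and Krt7, were tested and had slopes of -0.36 and -0.08. The 8 lymphocyte genes reached at most 9 counts and the 4 mast cell genes at most 3, and 0 of either were tested, whereas of 6 neutrophil genes, with at most 27 counts, 1 was tested, Mpo, with a slope of 0.28 (-0.38 to 0.94). Of 6 red blood cell genes, 4, the globin genes Hba-a1, Hba-a2, Hbb-bs and Hbb-bt, were at 0 in every library. The treatment of reads with several alignments was not given, so these zeros do not show that globin transcripts were absent. Alas2, the only red blood cell gene tested, had a slope of 1.02 (0.79 to 1.26). Of 10 ASPC genes, all were called different from 1 and 2, Dcn and Lum, had a slope above 0, with a median of 0.07. When DMSO replicate 5 was left out, 0 of the endothelial and 0 of the ASPC genes had a slope above 0 at the threshold in edgeR, and 19 of the 20 hepatocyte genes and Alas2 did. In FICZ against DMSO 0 genes of these 16 lists, the members included, passed the threshold in edgeR, where 0.0211% of all genes did. At an unadjusted p of 0.05 or less in edgeR, 19 of the 20 hepatocyte genes were lower with FICZ, where 3.49% of all genes were. The part of liver RNA in the differences of the members between the groups was not tested. The fit with Alb as a covariate cannot decide it, since the members were grouped by their slope on Alb in the same libraries.

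The genes whose log2 CPM was most like that of each member over the 10 libraries differed between the 7 and the 3. For Clec4f they were Cyp2c68, Vnn3 and Hjv, with r of 0.992, 0.987 and 0.987 and slopes on Alb of 1.11, 1.15 and 1.00. For C1qa they were Gm4788, Anks4b and Slco2b1 (r of 0.988 each), for C1qb Hpn, C130074G19Rik and Tkfc (0.990 to 0.991) and for C1qc H2-Aa, Sgk2 and Epb41l4b (0.987 to 0.992). Vsig4 was most like Bbox1, Igsf5 and Agxt (0.970 to 0.973), Ptprc most like Pex11a, Slc23a1 and Tyrobp (0.974 to 0.975), and Adgre1 most like Rnf152, Faah and Slco1a4 (0.951 to 0.963). Across these 7 members the 21 nearest genes had slopes on Alb from 0.37 for Pex11a to 1.15 for Vnn3 and Tyrobp. Csf1r was most like Nploc4, Fastkd5 and Ube2f (0.967 to 0.979), Cd68 most like Ino80c, Slc35d1 and Rab5if (0.940 to 0.958), and Cd14 most like Clec2d, Fads2 and Fmn2 (0.947 to 0.963). Slopes on Alb of these 9 genes lay between -0.0042 for Nploc4 and 0.33 for Clec2d. Each gene was picked for its high r among the 14251 genes tested, so these values of r are a description. So are the slopes of these genes, since the 7 and the 3 were divided by their slope on Alb in the same libraries.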

How the data were processed

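The authors aligned reads with STAR 2.7.7 to mm10 and deposited raw counts labelled by gene symbol and not normalized. The counting program, annotation, strand setting and treatment of reads with several alignments were not given in the sources used here. All 10 columns were matched to their samples by name. Counts were tested with edgeR 4.0.16 in R 4.3.3 (quasi-likelihood, TMM factors, filter by expression, robust dispersions) over 14251 genes, with Benjamini-Hochberg adjustment and a threshold of 0.05. Slopes came from the same test with centred log2 CPM of Alb as the only term, and the test against 1 carried Alb in the offset. Log2 CPM used a prior count of 2. Totals were 38328611 to 50210111 counts.

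The members, gene lists, tests and alternatives were chosen with earlier results of these data known. The genes named were the members, Alb, the 3 genes nearest to each member by Pearson's r, and from each list the genes past the threshold (up to 4 by smallest p), otherwise the 2 most abundant. Not every gene that this rule names is reported here. Timd4, Clec1b, Spi1, Mertk, Trem2, Gpnmb, Trf, Ahsg, Oit3, Pdgfra, Pecam1, C1s1 and Tlr4, and the genes that overlap or precede members, were named after their values were seen. Alternatives were DESeq2 1.42.0, other scaling factors, no filter on low counts, treatment as a term, the replicate number as a block, other hepatocyte genes in place of Alb, Alb as a covariate and leaving out each library.

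Same-numbered libraries deviated from their group means together in all 5 pairs, with correlations of 0.154 to 0.317 across genes, so the numbers were taken to pair the libraries, although no source states what they share. Positions and exon lengths came from GENCODE for GRCm38, and promoter sequences from RefSeq (GRCm38.p6). Both tests were checked on simulated data.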

Additional observations from a re-analysis of the deposited data

Results flagged for a closer look

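In 2 of the 20 groups of 5 libraries checked (10 members in DMSO and in FICZ) a single library lay far from the rest, where chance gives about 1. For Cd14 in DMSO, replicate 5 had 3.00 CPM against 1.73 CPM or less in the other 4, and the gap took up 0.790 of the whole range. For C1qb in DMSO, replicate 5 had 5.79 CPM against 1.99 CPM or less in the other 4, and the gap took up 0.721 of the range. The level at which a library of 5 was taken to lie apart was 0.71 of the range. Alb in this library had 4781 CPM, and the cause of the high values was not tested.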

How the results depend on the processing

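The number of all genes past the threshold for FICZ against DMSO was 3 in edgeR, 8 with the replicate block, 16 with DESeq2, 26 with DESeq2 and the replicate block, and 1 to 4 when each library was left out. No member was among the genes called under any of these. The replicate block changed the call of the slope of Cd68 and of no other member. With log2 CPM of Alb as a covariate the log2 fold change turned positive for Adgre1 (0.12), Ptprc (0.16), C1qc (0.29) and Cd14 (0.0015). On leaving out each library it ranged from -0.33 to 0.012 for Cd14, positive without DMSO replicate 5, and from -0.052 to 0.16 for Csf1r, negative without FICZ replicate 3. The number of genes whose slope on Alb differed from 0 was 2481, and ranged from 460 without DMSO replicate 5 to 4271 without DMSO replicate 1, with 1653 without DMSO replicate 3. The members called ranged from 6 to 8 on leaving out each library. On leaving out each library the slope of Csf1r ranged from -0.088 to 0.028 and that of Cd14 from -0.10 to 0.31, and with the replicate block they were 0.14 and 0.16. With the 20 hepatocyte genes other than Alb in its place, C1qb was called different from 1 (slope 1.31, edgeR adjusted p = 0.0166) and 4 members in place of 3. The slopes of the other 6 members that followed Alb rose as well. They lay between 1.12 for Adgre1 and 1.21 for C1qc, against 0.98 for C1qa to 1.08 for C1qc on Alb. The cause of these changes was not tested. With 7 to 112 counts of Adgre1 and 7 to 83 of Ptprc per library, depth limits the precision of these genes most.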

Other observations

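On a linear scale, a description chosen after the slopes were seen, each member's CPM was fitted as a constant plus a multiple of the CPM of Alb. The constant was 13.4 CPM (standard error 1.24) for Csf1r, 5.60 CPM (0.797) for Cd68 and 1.24 CPM (0.150) for Cd14, which was 98.9%, 82.4% and 72.2% of their mean levels. Without DMSO replicate 5 the constants were 14.6, 5.57 and 1.70 CPM. For Clec4f it was -0.08 CPM (0.157) and for C1qa 0.05 CPM (0.0716), where the mean levels were 2.33 and 1.51 CPM, and for C1qb it was -0.31 CPM (0.0978). Without DMSO replicate 5 these were -0.25 (0.300), 0.0090 (0.139) and -0.16 CPM (0.179). The constant extrapolates below the lowest level of Alb measured, 682 CPM.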
